A study of Mus musculus with 2 samples.

Results

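The genes described here are 10 genes of neutrophils, monocytes and other phagocytes: S100a8, S100a9, Ly6c2, Chil3, Ccr2, Plac8, Lyz2, Fcer1g, Tyrobp and Cybb. They were chosen by name, are 10 of the 32285 genes in the count tables, and were all found there by symbol. The data are 2 single-cell libraries from mouse liver, 1 mouse per library, prepared with a 10x Genomics 5-prime kit that tags each RNA molecule with a unique molecular identifier (UMI). The GS_KO mouse was Glul f/f and received AAV8-Cre, a virus carrying Cre recombinase to delete Glul, the gene of glutamine synthetase. The control mouse was also Glul f/f and received AAV8-GFP. Both mice were 11 weeks old, carried no tumour, and were sampled 2 weeks after the virus. AAV8 reaches mainly hepatocytes, and the sources used here do not name the promoter driving Cre. Livers were digested with collagenase II at 0.3 mg/mL, and isolated hepatocytes and purified non-parenchymal cells entered the libraries, in proportions not given. The labels name single cells in one place and single nuclei in another. With 1 library per group there is no replicate, no test between the mice is possible, and every interval below is an exact 95% interval for counting error only.

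Neutrophils are short-lived blood leukocytes that are made in the bone marrow and enter tissue upon injury or infection. Monocytes leave the marrow through the chemokine receptor CCR2 and become macrophages or dendritic cells in tissue, while Kupffer cells are the resident macrophages of the liver sinusoids. S100a8 and S100a9 encode the 2 chains of calprotectin, a metal-binding protein that fills the neutrophil cytosol. Ly6c2, Chil3, Ccr2 and Plac8 are used as genes of inflammatory monocytes, and Lyz2, Fcer1g, Tyrobp and Cybb are shared by most phagocytes, Kupffer cells included.

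Values are raw UMIs summed over the barcodes of 4 size classes and scaled to counts per 1000000 UMIs of the class (CPM). The classes of 200 to under 400, 400 to under 500, 500 to under 1000 and at least 1000 UMIs held 143687, 8772, 10037 and 1834 barcodes in GS_KO, against 116552, 28249, 11989 and 1703 in control. Median depths within a class were close between libraries, for example 639 UMIs in GS_KO and 632 in control at 500 to under 1000 UMIs. Malat1, a transcript kept in the nucleus, was not alike, at 17706 CPM in GS_KO and 7812 CPM in control in that class. Glul itself stood at 31.5 CPM in GS_KO and 124 CPM in control among barcodes of at least 1000 UMIs, and at 9.78 CPM in GS_KO and 113 CPM in control at 200 to under 400 UMIs, lower in GS_KO in both classes. Barcode names shared by the libraries numbered 8108, of which 65 had at least 500 UMIs in both. None had 2 or more UMIs of S100a8 plus S100a9 in both.

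S100a8 and S100a9 RNA was higher in the GS_KO library in each class of barcode size. Both genes lie on chromosome 3 of the GRCm38 build (mm10), S100a8 at chr3:90668978-90670035 on the plus strand and S100a9 at chr3:90692632-90695721 on the minus strand, 22596 bases apart. Their promoter windows, 250 bases before to 50 bases after the gene start, are shown because both genes hold a TATAAA box and move together in these libraries. Chil3, also on chromosome 3, is shown as the only other of the 9 members with a window to hold TATAAA, and Cybb as the member with the highest ratio between libraries at 200 to under 400 UMIs among those with UMIs in control. The windows are from RefSeq on GRCm38.p6, written 5′ to 3′ on the gene's strand, and capitals mark TATAAA on that strand and GAGGAA on either strand, where TTCCTC is GAGGAA on the other strand.
S100a8, chr3:90668821-90669120, plus strand: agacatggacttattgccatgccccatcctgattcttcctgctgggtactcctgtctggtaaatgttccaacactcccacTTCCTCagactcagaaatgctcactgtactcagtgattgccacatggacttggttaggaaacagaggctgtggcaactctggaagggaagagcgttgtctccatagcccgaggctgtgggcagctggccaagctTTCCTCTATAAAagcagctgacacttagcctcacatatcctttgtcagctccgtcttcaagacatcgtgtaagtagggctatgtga
S100a9, chr3:90695672-90695971, minus strand: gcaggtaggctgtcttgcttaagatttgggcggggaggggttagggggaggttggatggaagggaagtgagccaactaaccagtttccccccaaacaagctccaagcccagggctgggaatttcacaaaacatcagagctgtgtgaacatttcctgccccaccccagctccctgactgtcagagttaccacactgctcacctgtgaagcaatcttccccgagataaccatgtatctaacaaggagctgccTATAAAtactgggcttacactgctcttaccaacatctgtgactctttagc
Chil3, chr3:106167515-106167814, minus strand: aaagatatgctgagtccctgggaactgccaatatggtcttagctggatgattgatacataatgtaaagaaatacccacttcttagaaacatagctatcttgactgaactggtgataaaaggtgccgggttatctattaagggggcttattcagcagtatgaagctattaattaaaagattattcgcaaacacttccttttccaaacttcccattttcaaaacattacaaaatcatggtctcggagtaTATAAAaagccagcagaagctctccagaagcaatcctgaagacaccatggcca
Cybb, chrX:9469275-9469574, minus strand: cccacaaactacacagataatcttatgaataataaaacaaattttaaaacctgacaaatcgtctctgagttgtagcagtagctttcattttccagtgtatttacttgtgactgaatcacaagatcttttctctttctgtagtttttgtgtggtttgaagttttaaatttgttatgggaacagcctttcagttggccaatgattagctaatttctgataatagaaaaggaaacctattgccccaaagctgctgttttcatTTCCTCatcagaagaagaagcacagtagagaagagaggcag
Windows were found for 9 of the 10 members, all but Tyrobp. TATAAA occurred in 3 of these genes and in 8.32% of 32851 mouse promoter windows of the same length. GAGGAA, a short purine-rich motif of the kind bound by the myeloid factor PU.1, occurred in 4 of them, S100a8, Ly6c2, Cybb and Plac8, and in 28.3% of all windows. The 9 genes had 11 windows in all, and their counts are per gene, while the shares are per window. All of these are letter matches only. The Cybb window lies inside the longer gene span of the GENCODE annotation, chrX:9435252-9487771.

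S100a8 had 216, 68, 80 and 10 UMIs in GS_KO from the smallest to the largest barcodes, against 31, 14, 3 and 0 UMIs in control. In CPM this was 5.02, 17.7, 11.9 and 4.09 in GS_KO, against 0.814, 1.15, 0.379 and 0 in control. S100a9 had 502, 156, 158 and 14 UMIs in GS_KO, against 54, 29, 12 and 0 UMIs in control. The intervals of the 2 libraries did not overlap in any class for either gene. The GS_KO level was 6.16-fold higher for S100a8 (4.22 to 9.30) and 8.22-fold higher for S100a9 (6.20 to 11.1) at 200 to under 400 UMIs, and 31.5-fold (10.4 to 156) and 15.6-fold higher (8.67 to 30.8) at 500 to under 1000 UMIs. Among barcodes of at least 1000 UMIs, where control had none, the difference was at least 2.98-fold for S100a8 and at least 4.17-fold for S100a9, taking 3 UMIs as the limit for a library at 0. These bounds leave out the counting error of the GS_KO sums, and with it the exact lower limits were 2.002-fold for S100a8 and 2.96-fold for S100a9. All these intervals take each UMI as an independent count, while the UMIs of the pair came from few barcodes. At 500 to under 1000 UMIs, 1 GS_KO barcode held 26 of the 80 S100a8 and 64 of the 158 S100a9 UMIs. At 1000 or more, the 10 S100a8 UMIs in GS_KO came from 3 barcodes. The intervals are too narrow for such clumping. Sums of this kind cannot tell more cells of a type from more RNA per cell.

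**Figure D1:**
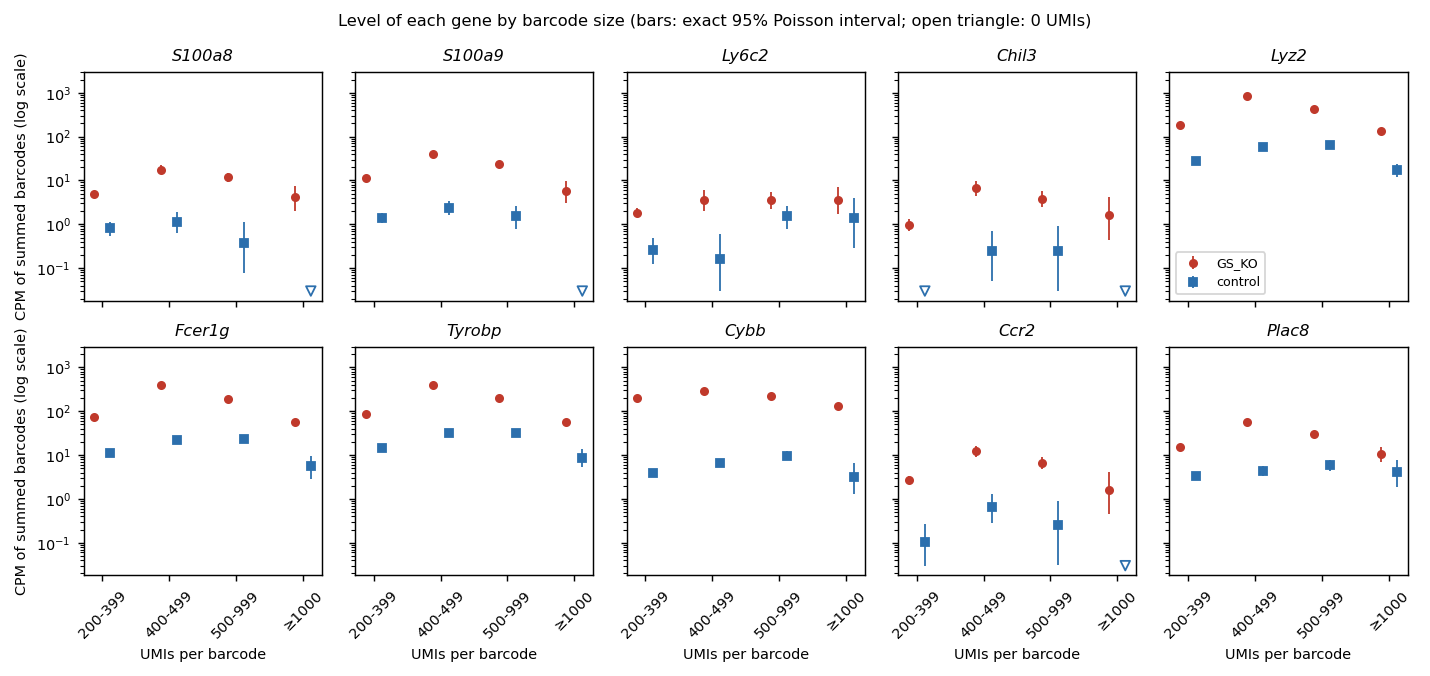
Level of each of the 10 genes in CPM (log scale) against barcode size, for GS_KO (circles) and control (squares). Bars are exact 95% Poisson intervals and open triangles mark sums of 0 UMIs. The GS_KO circle lies above the control square in every panel and class, and for all genes but Ly6c2 the GS_KO level is highest at 400 to under 500 UMIs.

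The 2 calprotectin genes were held by few barcodes. In GS_KO, 150 of 164330 barcodes of at least 200 UMIs had 2 or more UMIs of S100a8 plus S100a9, a share of 0.0913% (0.0773 to 0.107). In control, 29 of 158493 did, a share of 0.0183% (0.0123 to 0.0263). By class the counts were 110, 19, 18 and 3 barcodes in GS_KO, against 20, 5, 4 and 0 in control. The 0 of 1703 control barcodes of at least 1000 UMIs allows a share of up to 0.176%, taken as 3 counts of 1703. Among barcodes of at least 500 UMIs the share was 0.177% in GS_KO (0.110 to 0.270) and 0.0292% in control (0.00796 to 0.0748), and with each barcode thinned to 500 UMIs it was 0.143% in GS_KO and 0.0219% in control.

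These barcodes held 91.2% of all S100a8 and S100a9 UMIs in GS_KO and 83.9% in control. The most in a single barcode was 90 UMIs in GS_KO and 14 in control. The other 164180 GS_KO barcodes had 38 UMIs of S100a8 and 68 of S100a9, which is at most 1 UMI of the pair per barcode by construction. Of the 150 GS_KO barcodes, 75 had 5 or more UMIs of the pair and 24 had 10 or more, against 9 and 2 of the 29 in control. All 150 and all 29 also held Alb, the hepatocyte albumin gene, and the summed level of 12 hepatocyte genes was 75636 CPM in the GS_KO barcodes and 97734 CPM in the control ones. Hepatocyte RNA was thus present throughout: in the remaining barcodes the sum was 88996 CPM in GS_KO and 99941 CPM in control.

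The 150 GS_KO barcodes fell into unlike sets by the other neutrophil genes they held, a grouping made after the list of neutrophil markers was drawn up and described without a test. Camp, Ngp and Ltf encode proteins of the secondary granules and are made while neutrophils mature in the marrow. In GS_KO, 8 of the 150 barcodes held at least 1 UMI of them, with 91 UMIs of Camp, 106 of Ngp and 27 of Ltf in all, and none of the 29 control barcodes did. These 8 held 332 UMIs of S100a8 plus S100a9, which was 27.6% of the library's total. The barcode with most of them had 772 UMIs, of which 26 were S100a8, 64 S100a9, 26 Camp, 28 Ngp, 3 Ltf, 12 Lyz2 and 5 Chil3, against 15 of Alb. The second had 366 UMIs, with 23 of S100a8, 29 of S100a9, 6 of Camp and 13 of Ngp.

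Genes of later neutrophil stages marked more of the barcodes. At least 1 UMI of Retnlg, Csf3r, Cxcr2, Mmp8 or Mmp9 was present in 70 of the 150 GS_KO barcodes and in 6 of the 29 control ones, and 6 of the 8 barcodes with a granule gene were among those 70. Retnlg, a resistin-like secreted protein of neutrophils, had 122 UMIs in 54 of the 150 barcodes and only 21 UMIs in all other GS_KO barcodes. In control it had 4 UMIs in 2 of the 29 barcodes and 1 UMI elsewhere. Il1b, the gene of interleukin-1 beta, was in 53 of the 142 GS_KO barcodes without a granule gene, at 1306 CPM (1026 to 1640). It was in 0 of the 8 with one, where the interval for 0 UMIs reaches 910 CPM. Il1b was in 3 of the 29 control barcodes.

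**Figure D2:**
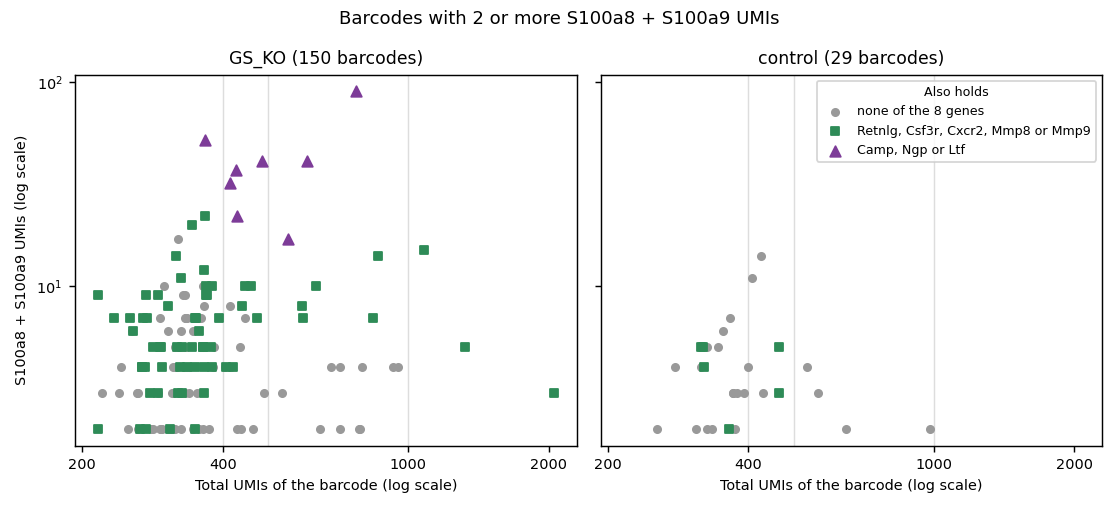
Each point is a barcode with 2 or more UMIs of S100a8 plus S100a9, placed by its total UMIs and its UMIs of the pair (both log scales), GS_KO on the left and control on the right. Triangles hold Camp, Ngp or Ltf, squares hold Retnlg, Csf3r, Cxcr2, Mmp8 or Mmp9 but none of those 3, and grey points hold none of the 8. The 8 triangles, all in GS_KO, include the 6 barcodes with most of the pair, while the control points reach at most 14 UMIs.

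Ly6g, Elane and Mpo were at or near 0, and Prtn3 lay outside the calprotectin barcodes. Ly6g, the surface marker used to sort mouse neutrophils, had 1 UMI in GS_KO and 0 in control over all barcodes of at least 200 UMIs. The primary granule genes Elane and Mpo, made at the promyelocyte stage, had 21 and 3 UMIs in GS_KO, none of them in the 150 barcodes, and 0 in control. Prtn3, a primary granule protease as well, had 427 UMIs in GS_KO and 1 in control. In GS_KO these lay in 425 barcodes, 0 of them among the 150. Of the 21 neutrophil markers, 7 had at least 20 UMIs over both libraries in barcodes of at least 500 UMIs. Of these, 5 were 2-fold or more higher in GS_KO and none lower, where 16.3% of the 12925 genes measured in these barcodes were that much higher and 4.09% that much lower. The 5 were Retnlg, Camp, Ngp, Prtn3 and Csf3r, of which the first 4 had 0 UMIs in control, were measured through GS_KO alone and so had to be higher. Csf3r, with 6 UMIs in control, also passed only with its GS_KO UMIs added. Camp had 40 UMIs and Ngp 46 UMIs in GS_KO with 0 in control, at least 14.7-fold and 16.9-fold higher. Wfdc21 did not follow them, at 354 CPM in GS_KO and 391 CPM in control, and took most UMIs of the list in both libraries.

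Genes concentrated in the calprotectin barcodes were ranked among barcodes of at least 500 UMIs, of which 21 in GS_KO qualified. A gene was ranked only if found in at least 5 of the 21, with at least 5 UMIs. Camp, Ngp and Ltf were in only 4, 4 and 2 GS_KO barcodes of this size, so the rule left them out. Among the 480 genes ranked, Retnlg came first, at 1433 CPM in the 21 barcodes and 0.219 CPM in the rest of these barcodes. Anxa1, the annexin A1 gene, followed at 688 CPM in the 21 barcodes and 7.12 CPM in the rest. S100a6 stood at 344 CPM in the 21 barcodes and 3.94 CPM in the rest, and Il1b at 631 and 18.4 CPM in the same order. Alox5ap, which serves leukotriene synthesis, stood at 287 CPM in the 21 barcodes and 24.9 CPM in the rest. No gene could be ranked in control, where 4 barcodes qualified.

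The monocyte genes were higher in GS_KO too, at low counts. Ly6c2, the antigen that marks inflammatory monocytes, had 80, 14, 24 and 9 UMIs in GS_KO across the 4 classes, against 10, 2, 12 and 3 UMIs in control. Its ratio was 7.08-fold at 200 to under 400 UMIs (3.66 to 15.3), 2.37-fold at 500 to under 1000 UMIs (1.14 to 5.19) and 2.68-fold at 1000 or more, where the interval of 0.669 to 15.4 includes no difference. Reads of Ly6c2 and its near copy Ly6c1 can be hard to separate, and Ly6c1 had 9 UMIs in GS_KO and 1 in control among barcodes of at least 500 UMIs.

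Ccr2, the receptor that draws monocytes to CCL2, had 118, 47, 44 and 4 UMIs in GS_KO, against 4, 8, 2 and 0 UMIs in control. At 200 to under 400 UMIs it was 26.1-fold higher in GS_KO (9.93 to 97.4), and at 400 to under 500 UMIs 18.7-fold (8.76 to 45.8). Chil3, a chitinase-like secreted protein of monocytes and macrophages, had 42, 26, 26 and 4 UMIs in GS_KO, against 0, 3, 2 and 0 UMIs in control. It was at least 12.4-fold higher at 200 to under 400 UMIs. Plac8, a small cysteine-rich protein of leukocytes, had 668, 221, 208 and 26 UMIs in GS_KO, against 130, 54, 46 and 9 UMIs in control. Its ratio was between 2.58-fold (1.17 to 6.26) at 1000 or more UMIs and 13.03-fold (9.64 to 17.9) at 400 to under 500 UMIs.

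Of the 150 GS_KO calprotectin barcodes, 8 held a UMI of Ly6c2, Ccr2 or Chil3. Among barcodes of at least 500 UMIs this was 4 of 21 (19.0%, 5.45 to 41.9), against 0.667% of the other 11850. Chil3 was in 18 such barcodes, of which 5 also held S100a8 (27.8%), against 0.160% of those without Chil3. Of the 16 Chil3 UMIs in the 150 barcodes, 15 were in the 8 with a granule gene. Among GS_KO barcodes of at least 500 UMIs, 46 held Ccr2. Of these, 32 also held Lyz2 (69.6%), 22 Fcer1g and 22 Tyrobp, and Lyz2 was in 13.1% of the barcodes without Ccr2. With so few barcodes of either kind, the lack of any with both Ccr2 and calprotectin UMIs carries no information. In control 2 barcodes held Ccr2, too few to compare.

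The phagocyte genes carried most of the members' UMIs. Lyz2, which encodes lysozyme M, stood at 185, 855, 437 and 134 CPM in GS_KO from the smallest to the largest barcodes, against 28.4, 59.2, 65.3 and 17.0 CPM in control. It was 6.50-fold higher in GS_KO at 200 to under 400 UMIs (6.10 to 6.94), 14.4-fold at 400 to under 500 (13.3 to 15.7), 6.70-fold at 500 to under 1000 (6.10 to 7.37) and 7.92-fold at 1000 or more (5.63 to 11.4). Fcer1g, the signalling gamma chain of Fc receptors, stood at 72.8, 393, 188 and 56.5 CPM in GS_KO, against 11.0, 22.7, 23.1 and 5.50 CPM in control. Tyrobp, the DAP12 adaptor of myeloid receptors, stood at 86.8, 395, 200 and 56.5 CPM in GS_KO, against 14.3, 32.0, 32.1 and 8.71 CPM in control. The ratios of Fcer1g and Tyrobp were between 6.09-fold and 17.3-fold, and for all 3 genes the ratio was highest at 400 to under 500 UMIs. Other cell types differed in that class too. Stellate cell markers summed to 833 CPM in GS_KO and 408 CPM in control there, but to 422 and 456 CPM at 500 or more UMIs. Endothelial markers summed to 426 CPM in GS_KO and 175 CPM in control there, and to 208 and 169 CPM at 500 or more.

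Cybb, the gp91phox chain of the NADPH oxidase that makes superoxide, had the highest ratio of the measured members with control UMIs at 200 to under 400 UMIs. It had 8867, 1101, 1507 and 329 UMIs in GS_KO, against 151, 82, 77 and 7 UMIs in control. In CPM this was 206, 287, 225 and 135 in GS_KO, against 3.97, 6.71, 9.72 and 3.21 in control. The GS_KO level was 51.9-fold higher at 200 to under 400 UMIs (44.2 to 61.4), 42.7-fold at 400 to under 500 (34.1 to 54.2), 23.1-fold at 500 to under 1000 (18.4 to 29.5) and 42.0-fold at 1000 or more (20.1 to 105).

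**Figure D3:**
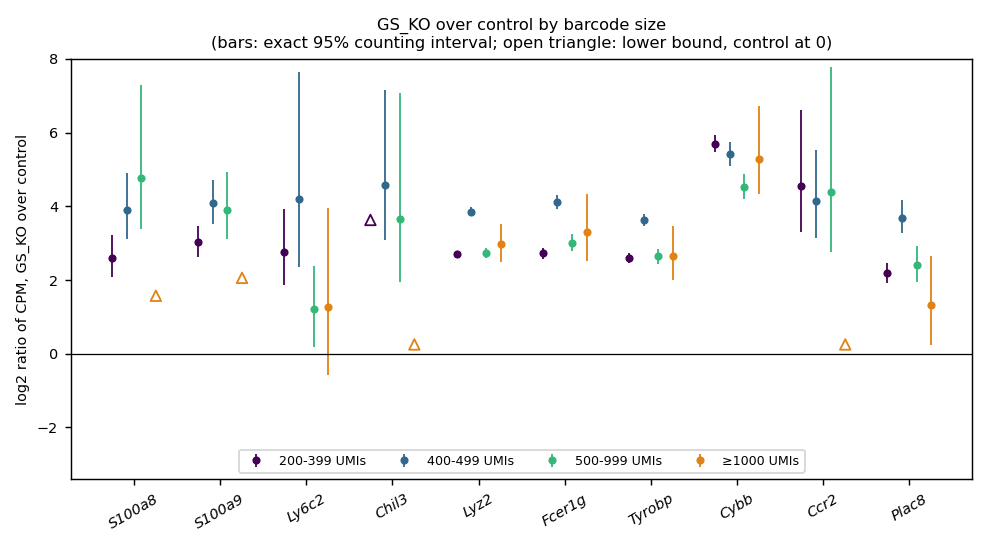
log2 ratio of CPM, GS_KO over control, for each gene in the 4 classes of barcode size. Bars are exact 95% counting intervals and open triangles are lower bounds where control had 0 UMIs. All values lie above 0, Cybb lies between 4.52 and 5.69, and the interval of Ly6c2 at 1000 or more UMIs crosses 0.

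All members with at least 20 UMIs over both libraries were 2-fold or more higher in GS_KO, and none was lower. This was 10 of 10 members at 200 to under 400 UMIs, where 13.2% of 13688 genes were that much higher, and 9 of 9 at 400 to under 500 UMIs, where 23.3% of 11753 genes were. It was 10 of 10 at 500 to under 1000 UMIs, beside 15.6% of 12349 genes, and 5 of 5 at 1000 or more, beside 12.8% of 10192 genes. The share of all genes that were 2-fold or more lower was 4.25%, 3.3%, 3.7% and 5.6% in the same order. The 5 members left at 1000 or more UMIs were Lyz2, Fcer1g, Tyrobp, Cybb and Plac8. Of these, only Lyz2 reached 20 UMIs in control. At 200 to under 400 UMIs the measured members below 20 UMIs in control were Ly6c2, Chil3 and Ccr2. At 400 to under 500 they were S100a8, Chil3 and Ccr2, and at 500 to under 1000 S100a8, S100a9, Ly6c2, Chil3 and Ccr2. Such members were measured only with GS_KO UMIs added, so the filter partly set these counts. A member measured through GS_KO alone had to be higher. The members' median log2 ratio was 2.74, 4.08, 3.33 and 2.97 over the 4 classes, and that of all measured genes −0.01, 0.27, 0.15 and 0.04.

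Kupffer cell RNA moved with these genes. The 7 Kupffer cell markers summed to 580 CPM in GS_KO and 132 CPM in control among barcodes of at least 500 UMIs. Of the 7, 6 were 2-fold or more higher in GS_KO, with a median log2 ratio of 2.51, beside the 16.3% of all genes that were that much higher. Cd163, a haemoglobin scavenger receptor, was the exception, at 6.34 CPM in GS_KO and 12.8 CPM in control. Barcodes with 2 or more Kupffer marker UMIs were 1012 of 11871 in GS_KO (8.52%) and 276 of 13692 in control (2.02%). The members were therefore also read within and outside such barcodes.

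Among barcodes of at least 500 UMIs, the libraries differed less in Lyz2, Fcer1g and Tyrobp where Kupffer marker RNA was present than where it was not. At 200 to under 400 UMIs, where a barcode can hold fewer marker UMIs, 5898 of 7956 Lyz2 UMIs in GS_KO and 768 of 1082 in control lay in barcodes without a Kupffer marker UMI. In barcodes of at least 500 UMIs with 2 or more Kupffer marker UMIs, Lyz2 stood at 2333 CPM in GS_KO and 1379 CPM in control, 1.69-fold higher (1.49 to 1.94). Fcer1g stood at 1111 CPM in GS_KO and 529 CPM in control, 2.10-fold higher (1.70 to 2.61). Tyrobp stood at 1213 CPM in GS_KO and 828 CPM in control, 1.47-fold higher (1.24 to 1.75). In barcodes without a Kupffer marker UMI the same genes were 6.88-fold (5.94 to 8.002), 7.79-fold (5.97 to 10.3) and 6.69-fold higher (5.26 to 8.61) in GS_KO. Depths were alike, with medians of 610.5 UMIs in GS_KO and 595 in control among the Kupffer marker barcodes, and of 678 UMIs in GS_KO and 664 in control among those without.

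Averaged over all barcodes without a Kupffer marker UMI, the share with these genes did not exceed that in stellate marker barcodes. Lyz2 was in 7.001% of GS_KO barcodes without a Kupffer marker, and in 10.7% of the 429 GS_KO barcodes with 2 or more UMIs of stellate cell genes and 0 of the Kupffer markers, cells that should lack it. In control it was in 1.17% of barcodes without a Kupffer marker and in 1.88% of 691 stellate marker barcodes. The median depths of the stellate marker barcodes were 644 UMIs in GS_KO and 617 in control. By contrast Lyz2 was in 68.3% of Kupffer marker barcodes in GS_KO and in 46.7% in control. In GS_KO, Fcer1g was in 2.89% of barcodes without a Kupffer marker and in 6.99% of stellate marker ones, and Tyrobp in 3.48% and 6.76% in the same order. These are averages, and single sets could hold more. Lyz2 was in 35 of the 150 GS_KO calprotectin barcodes of at least 200 UMIs, and 141 of the 150 had no Kupffer marker UMI. The Ccr2 barcodes, 69.6% of them with Lyz2, were not limited to barcodes without a Kupffer marker. Of their 48 Ccr2 UMIs, 32 lay in barcodes without a Kupffer marker UMI and 10 in barcodes with 2 or more.

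**Figure D4:**
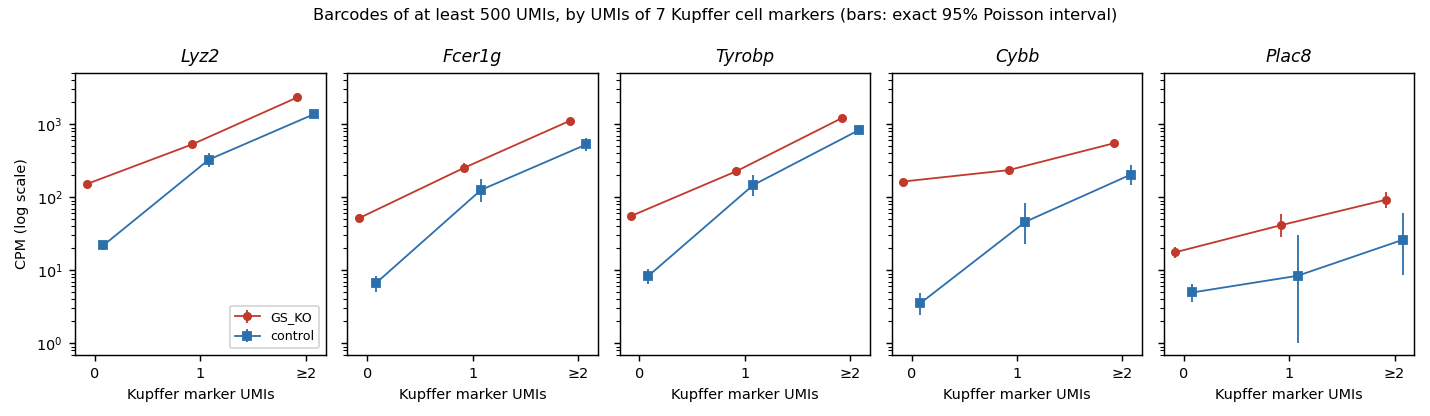
CPM (log scale) of 5 members in barcodes of at least 500 UMIs with 0, 1 or at least 2 UMIs of the 7 Kupffer cell markers, GS_KO as circles and control as squares, with exact 95% Poisson intervals. The curves of Lyz2, Fcer1g and Tyrobp close up towards the right. Cybb climbs less steeply in GS_KO, with 164 CPM at 0 marker UMIs and 549 CPM at 2 or more, than in control, with 3.51 and 204 CPM.

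Cybb was spread differently in the 2 libraries. In GS_KO, 68.4% of its UMIs in barcodes of at least 500 UMIs were in barcodes without a Kupffer marker, against 40.5% in control. Its level with 2 or more Kupffer marker UMIs was 3.34 times that with none in GS_KO (2.98 to 3.74) and 58.2 times in control (35.8 to 95.01), intervals that do not overlap. For Lyz2 the same ratio was 15.4 in GS_KO (14.3 to 16.6) and 62.6 in control (52.1 to 75.4). Within Kupffer marker barcodes Cybb was 2.69-fold higher in GS_KO (1.93 to 3.84), at 549 CPM in GS_KO and 204 CPM in control. Without a Kupffer marker it was 46.8-fold higher (33.3 to 67.8), at 164 CPM in GS_KO and 3.51 CPM in control.

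Cybb was in 11.4% of GS_KO barcodes without a Kupffer marker and in 11.7% of stellate marker barcodes. In control it was in 0.237% of the barcodes without a Kupffer marker and in 0.434% of stellate marker ones. Mpeg1, the perforin-2 gene of macrophages, chosen as a comparison after its values were seen, had a like pattern, at 3.71 times its level without a Kupffer marker in GS_KO (3.26 to 4.22) and 20.4 times in control (14.3 to 28.6). Cybb also differed from the other phagocyte members by barcode size. In GS_KO its level at 400 to under 500 UMIs was 1.39 times that at 200 to under 400 UMIs (1.31 to 1.48). Lyz2 was at 4.62 times (4.44 to 4.82), Fcer1g at 5.40 times (5.08 to 5.75) and Tyrobp at 4.55 times (4.29 to 4.83), and the 7 Kupffer cell markers were between 3.64 and 5.40 times.

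The members also differed in how many of their UMIs came from barcodes with 2 or more UMIs of the same gene. Among GS_KO barcodes of at least 500 UMIs this share was 95.3% of 172 UMIs for S100a9 and 86.7% of 90 UMIs for S100a8. It was 72.2% for Lyz2, 58.9% for Fcer1g and 53.5% for Tyrobp. For Cybb it was 23.9% of 1836 UMIs, although Cybb had more UMIs there than Fcer1g or Tyrobp, and for Plac8 and Ccr2 it was 19.2% and 8.33%. In control it was 59.2% of 554 UMIs for Lyz2, 37.9% for Fcer1g, 41.4% for Tyrobp and 14.3% of 84 UMIs for Cybb. S100a9 was at 75.0% of only 12 control UMIs.

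**Figure D5:**
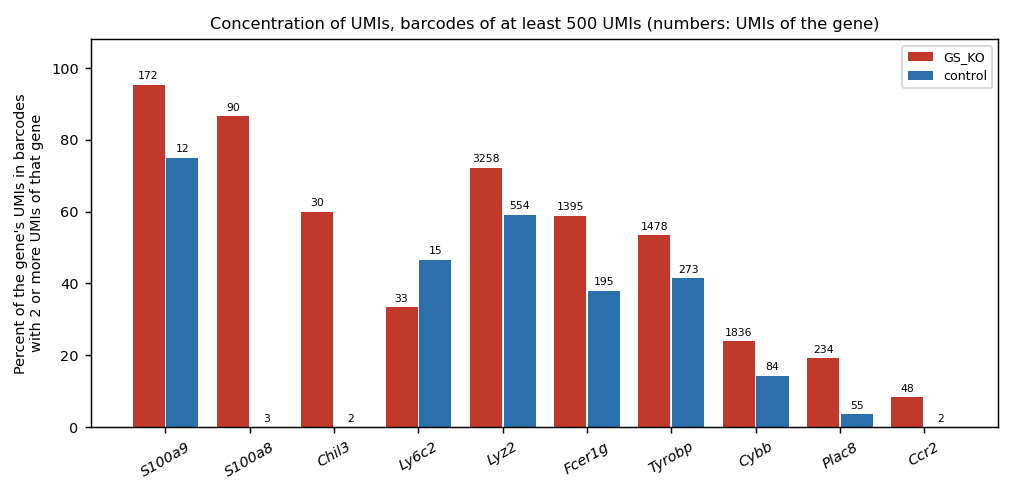
Percent of each gene's UMIs, in barcodes of at least 500 UMIs, that lay in barcodes with 2 or more UMIs of that gene, with GS_KO left and control right and the gene's UMIs printed above each bar. S100a9 and S100a8 are the most concentrated in GS_KO, and Cybb is low at 23.9% of 1836 UMIs. Bars of genes with few UMIs, such as the 2 of Ccr2 in control, carry little information.

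Calprotectin and Kupffer marker barcodes overlapped in small numbers. Of 3691 GS_KO barcodes with 2 or more Kupffer marker UMIs, 2 were among the 150 calprotectin barcodes, and of 903 in control none was among the 29. Among GS_KO barcodes of at least 500 UMIs, 1 of the 21 calprotectin barcodes had 2 or more Kupffer marker UMIs (4.76%, 0.1205 to 23.8), against 8.53% of the others, a share within that interval. A UMI of Lyz2, Fcer1g or Tyrobp was in 81 of the 150 GS_KO barcodes and in 10 of the 29 control ones. Lyz2 stood at 1285 CPM (1016 to 1603) in the 150 barcodes, with 38 of its 78 UMIs in the 8 that held a granule gene. Plac8 was in 4 of the 150 and Cybb in 12. Plac8 had 53.5 CPM in GS_KO and 29.9 CPM in control in stellate marker barcodes, a ratio of 1.79 (0.853 to 3.82).

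Genes concentrated in the barcodes rich in the other 8 members were ranked the same way. In GS_KO, 1450 barcodes of at least 500 UMIs had 2 or more UMIs of them, against 201 in control. The first 5 in GS_KO were Mag, Dppa3, Tppp3, E230016K23Rik and Cacna1f, at 4.72 to 12.3 CPM in these barcodes and at most 0.124 CPM in the others. Of the next 5, chosen after their values were seen, Ear2, an eosinophil-associated ribonuclease, stood at 17.9 CPM in these barcodes and 0.247 CPM in the others, and Ms4a7, a macrophage membrane protein, at 33.97 CPM in these and 0.619 CPM in the others. Ms4a4a had the same values as Ear2. In control, where Arl4c and Btnl2 were also among the first 5, Ifitm6 and Bcl2a1b stood at 53.2 CPM in these barcodes and 0.100 CPM in the others. Clec4a3, a lectin receptor of monocytes, stood at 53.2 CPM in these and 0.201 CPM in the others, and the Fc receptor Fcgr4 at 68.4 CPM in these and 0.301 CPM in the others. The genes named rest on between 5 and 36 UMIs each in these barcodes.

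The following lists were counted in barcodes of at least 500 UMIs, where 16.3% of all 12925 measured genes were 2-fold or more higher in GS_KO and 4.09% that much lower. The limit of the filter holds for each list: a measured gene with under 20 UMIs in control passed only with its GS_KO UMIs added. Of the 7 genes of the NADPH oxidase, Cybb included, 6 were 2-fold or more higher in GS_KO and none lower, with a median log2 ratio of 2.29, against 0.14 for all genes. Ncf4, a cytosolic subunit, stood at 11.7 CPM in GS_KO and 0.990 CPM in control, and the small GTPase Rac2 at 28.9 CPM in GS_KO and 2.67 CPM in control. Cyba, the p22phox chain that pairs with Cybb, was at log2 2.27, at 90.1 CPM in GS_KO and 18.7 CPM in control, chosen here for its role after its values were seen. Cybc1 was the member below 2-fold, at log2 0.64.

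Of the receptors, adaptors and kinases listed with Fcer1g and Tyrobp, these members included, 16 of the 19 found were measured. Of the 16, 13 were 2-fold or more higher in GS_KO and none lower, with a median log2 ratio of 2.26. Of the 13, Fcgr1, Fcgr4, Pirb, Hcst, Fgr, Btk and Vav1 had under 20 UMIs in control, so the filter partly set this count. The activating Fc receptors Fcgr4 and Fcgr1 had log2 ratios of 3.36 (2.56 to 4.41) and 3.03 (2.13 to 4.21), and the kinase Fgr 3.23 (2.50 to 4.15). Fcgr2b, the inhibitory Fc receptor that sinusoidal endothelium also expresses, stood at 31.6 CPM in GS_KO and 27.2 CPM in control.

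Among ligands that recruit these cells, of 5 measured chemoattractant genes, 5 were 2-fold or more higher in GS_KO, with a median log2 ratio of 2.89. Of these, only Ccl4 and Cxcl1 had at least 20 UMIs in control, at 28 and 761. Ccl2, the ligand of CCR2, had 354 UMIs in GS_KO and 14 in control, a log2 ratio of 4.76 (4.04 to 5.69). The neutrophil attractant Cxcl1 stood at 558 CPM in GS_KO and 75.3 CPM in control, and Cxcl2 at 17.6 CPM in GS_KO and 0.495 CPM in control. Cxcl5 was at 0 in both. Among 7 measured growth factor genes and receptors, 5 were 2-fold or more higher and 1 lower, with Csf1, the macrophage growth factor, at 55.1 CPM in GS_KO and 9.50 CPM in control. Of the 5, Csf2ra, Csf2rb and Csf3r had under 20 UMIs in control. Il34, the other ligand of the CSF1 receptor, was the lower one, at 2.08 CPM in GS_KO and 5.44 CPM in control, chosen after its values were seen. Csf3, the neutrophil growth factor, had 0 UMIs in both, and its receptor Csf3r 21 UMIs in GS_KO and 6 in control.

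Adhesion genes were higher in 7 of 9 measured, with a median log2 ratio of 2.37, led by Icam1, an adhesion ligand of leukocyte integrins, at 56.0 CPM in GS_KO and 3.17 CPM in control. The integrin chains Itgb2, Itgam and Itgal had log2 ratios between 2.52 and 2.75. Among the 7, Itgam and Selplg had under 20 UMIs in control. Of 7 measured myeloid transcription factors, 3 were higher, again beside 16.3% of all genes. Spi1, which encodes PU.1, stood at 33.6 CPM in GS_KO and 2.87 CPM in control. Relatives of the members were mixed: of 9 measured S100 genes and receptors 4 were higher and none lower, with a median log2 ratio of 0.98, and of 4 measured Ly6, chitinase-like and lysozyme relatives 4 were higher. Chil1 was among these, with 40 UMIs in GS_KO and 1 in control, and Ly6e at 822 CPM in GS_KO and 132 CPM in control. Chil1 and Ly6d, like S100a4 and S100a6 among the higher S100 genes, had under 20 UMIs in control. Ly6g, Chil4 and Chia1 had no UMI in either library in these barcodes.

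Markers of the other cell types in the samples gave the following counts of genes that were 2-fold or more higher in GS_KO among those measured, in barcodes of at least 500 UMIs, beside the 16.3% of all genes. Monocyte markers had 9 of 10 higher, with Cx3cr1 at 12.5 CPM in GS_KO and 1.48 CPM in control and Ms4a4c at 43 UMIs in GS_KO and 1 UMI in control. Of the 9, only Itgal had at least 20 UMIs in control, at 34. The limit of the filter given above holds for all these marker counts. Of the general macrophage markers 11 of 12 were higher, with C1qb at 326 CPM in GS_KO and 37.0 CPM in control and Cd14 at 20.5 CPM in GS_KO and 0.792 CPM in control. Dendritic cell markers had 5 of 6 higher, among them the class II genes Cd74, at 1266 CPM in GS_KO and 49.0 CPM in control, and H2-Aa, at 751 CPM in GS_KO and 25.1 CPM in control. The others higher were the class II genes H2-Ab1 and H2-Eb1, and Clec9a, with 24 UMIs in GS_KO and 7 in control. Zbtb46 was not 2-fold higher, at 10.8 CPM in GS_KO and 8.31 CPM in control. Flt3, Xcr1, Cd209a, Itgax, Ccr7 and Siglech did not reach 20 UMIs over both libraries.

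Plasma cell markers had 4 of 6 higher, with Jchain at 273 CPM in GS_KO and 58.1 CPM in control. B cell markers had 2 of 2 higher, Cd79a and Cd79b, which had only 4 and 1 UMIs in control. No T and NK cell marker reached 20 UMIs, at 74 UMIs in GS_KO and 27 in control for the 12 together. Endothelial markers had 2 of 10 higher with a median log2 ratio of 0.38, a share near that of all genes, and stellate cell markers 1 of 10 with a median of −0.01. The single measured cholangiocyte marker, Sox9, was higher, with 185 UMIs in GS_KO and 16 in control. Of 3 measured red cell and platelet markers none was higher. Of 12 hepatocyte markers none was higher and 4 were 2-fold or more lower, with a median log2 ratio of −0.62. How far the mixing of hepatocytes with non-parenchymal cells set these differences cannot be told apart from the genotype, since each group is 1 preparation.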

How the data were processed

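Single-cell RNA data of mouse liver from 2 libraries were analysed, 1 library per group, grouped by the genotype label. The authors deposited raw UMI counts per gene and barcode, not normalized, counted by Cell Ranger (version 8.0.0, per the file headers). The build was mm10, per the submitters' processing notes. The sources used here do not say how barcodes were selected. Reads of near copies such as Ly6c2 and Ly6c1, Lyz2 and Lyz1, or Chil3 and Chil4 may be split or lost in counting. GS_KO had 175937 barcodes and 57973740 UMIs, and control had 166037 barcodes and 61635695 UMIs. The members and gene lists were chosen with earlier results of these data known.

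Counts were summed per library and barcode size and scaled to 1000000. Levels have exact Poisson intervals, ratios exact conditional intervals, shares Clopper-Pearson intervals, all at 95%. log2 ratios had 0.5 counts added, and a sum of 0 was set to 3 counts for a bound. A gene was measured with at least 20 UMIs over both libraries and called at 2-fold. From each of 22 lists all genes were counted and up to 4 with the largest ratios named; genes like the members were the 10 with the highest ratio of CPM, with at least 5 UMIs in 5 barcodes. Clec7a was not among the gene names, and a further list gene is not reported here. No p-value was computed and doublets were not removed. The calculation was tested on simulated data. Alternatives covered scaling, filters, depth and left-out barcodes. Tools were Python 3.11.15, numpy 2.4.6, scipy 1.17.1, pandas 2.3.3 and matplotlib 3.10.9.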

Additional observations from a re-analysis of the deposited data

Results flagged for a closer look

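Barcodes of under 200 UMIs lie outside the 4 size classes and enter no comparison above, and calprotectin RNA was present there too. S100a8 plus S100a9 had 37 UMIs in GS_KO barcodes of under 200 UMIs, against 7 in control. This was 18.9 CPM in GS_KO (13.3 to 26.1) and 5.65 CPM in control (2.27 to 11.6). A single GS_KO barcode held 22 of the 37 UMIs, and the control barcode with most held 6. In all, 3 of 11607 GS_KO barcodes and 1 of 7544 control barcodes of that size had 2 or more UMIs of the pair.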

How the results depend on the processing

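The members' direction held under nearly all of the alternatives. Of 228 log2 ratios of a member recomputed under an alternative that could move them, 227 were above 0 and 213 lay within the counting interval of the value reported. The exception was Plac8 in barcodes of at least 1500 UMIs, at −0.19 from 4 UMIs in GS_KO and 3 in control. Of 31 recomputed counts of members 2-fold or more higher, 30 were within 1.5 times of the one reported. The other was at 1000 or more UMIs with no minimum count, where 10 members were higher in place of 5, beside 25.2% of all genes. The share of barcodes of at least 500 UMIs with calprotectin RNA was 0.295% in GS_KO at a minimum of 1 UMI. In control it was 0.00730% when a UMI of each gene was required and 0 at a minimum of 1000 UMIs per barcode. Leaving out the calprotectin barcodes lowered the log2 ratio of S100a9 to 1.38 at 400 to under 500 UMIs, from 4 UMIs in GS_KO and 5 in control, and to 1.62 at 500 to under 1000 UMIs, from 6 UMIs in GS_KO and 2 in control. As these barcodes were chosen by their S100a8 and S100a9 UMIs, leaving them out removed such UMIs by construction. At most 1 UMI of the pair per barcode was left. At 400 to under 500 UMIs, 7 members were then measured and higher in place of 9. Leaving out the Kupffer marker barcodes raised that of Cybb to 6.12 at 400 to under 500 UMIs. Scaling by the median of ratios moved all values by the medians of all genes given above, at most 0.27. No paired analysis was possible because each group is 1 library of 1 mouse. At 1000 or more UMIs, S100a8, S100a9, Ly6c2, Chil3 and Ccr2 were under 20 UMIs over both libraries. Ccr2 and Chil3 had 4 UMIs each in GS_KO and 0 in control there, and the interval of the ratio, with a lower limit of 0.590, includes no difference.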
